A study of Mus musculus with 6 samples.

Results

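A set of 10 genes of type 2 immunity was described across the cells of the mouse cortical surface and of the dura and inner skull: the alarmins Il33 and Tslp, the receptor Il1rl1, the lymphocyte survival factor Il7 and its receptor Il7r, the effector genes Il13, Il5, Il4 and Areg, and the transcription factor Gata3. The 10 of 31053 genes were taken by symbol from the count tables, and they and 47 further genes of the pathway were left out of clustering and of cell naming. The data were 6 droplet single-cell RNA-seq libraries (10x Genomics, 3′ chemistry), in which every transcript copy captured from a cell is counted once by its molecular identifier (UMI). Of these, 4 libraries were cortical surface-associated (CSA, cells of the leptomeninges and adjoining brain surface digested off the dorsal cortex) and 2 were bone-associated (BA, the dura and connective tissue stripped from the inner face of the skull). All mice were untreated adult wild-type C57BL6 animals, each library pooled several mice of both sexes, and viable cells were sorted as DRAQ5-positive and propidium iodide-negative. The animals were not perfused, so blood cells could enter either preparation, and the library rather than the mouse is the replicate.

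Of 17560 barcodes, 8680 passed the filters (5272 CSA and 3408 BA cells), with library medians of 5468 to 9556 UMIs per cell, and 7866 fell in clusters named from marker genes. A name such as ILC2-like means only that the markers of that cell type led the cluster. Hemoglobin genes took 84.6% and 71.9% of all UMIs of CSA libraries 3 and 4, and 17.7% and 12.1% of the UMIs of their kept cells, against 0.520% or less of all UMIs in each of the other 4 libraries. These libraries also supplied 41 of the 50 ILC2-like cells of the cortical surface (12 and 29), so the levels of the members in these cells are given with libraries 1 and 2 beside them. Pairs of libraries shared 35 barcodes in all, 10 of them between kept cells.

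Alarmins are released by barrier and stromal cells. IL-33 is stored in the nucleus and signals through ST2, the product of Il1rl1, on group 2 innate lymphoid cells (ILC2s, tissue lymphocytes without rearranged antigen receptors), mast cells and some T cells. TSLP signals through a receptor that joins CRLF2 with the IL-7 receptor chain encoded by Il7r. In response these cells make IL-13, IL-5, IL-4 and amphiregulin (Areg), under the transcription factor GATA3 in the lymphocytes, and the dura is known to house ILC2s and mast cells. Levels are given as UMIs of the gene per 1000000 UMIs (CPM) of a class within a library, for libraries with at least 10 cells of the class unless counts are given.

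**Figure D1:**
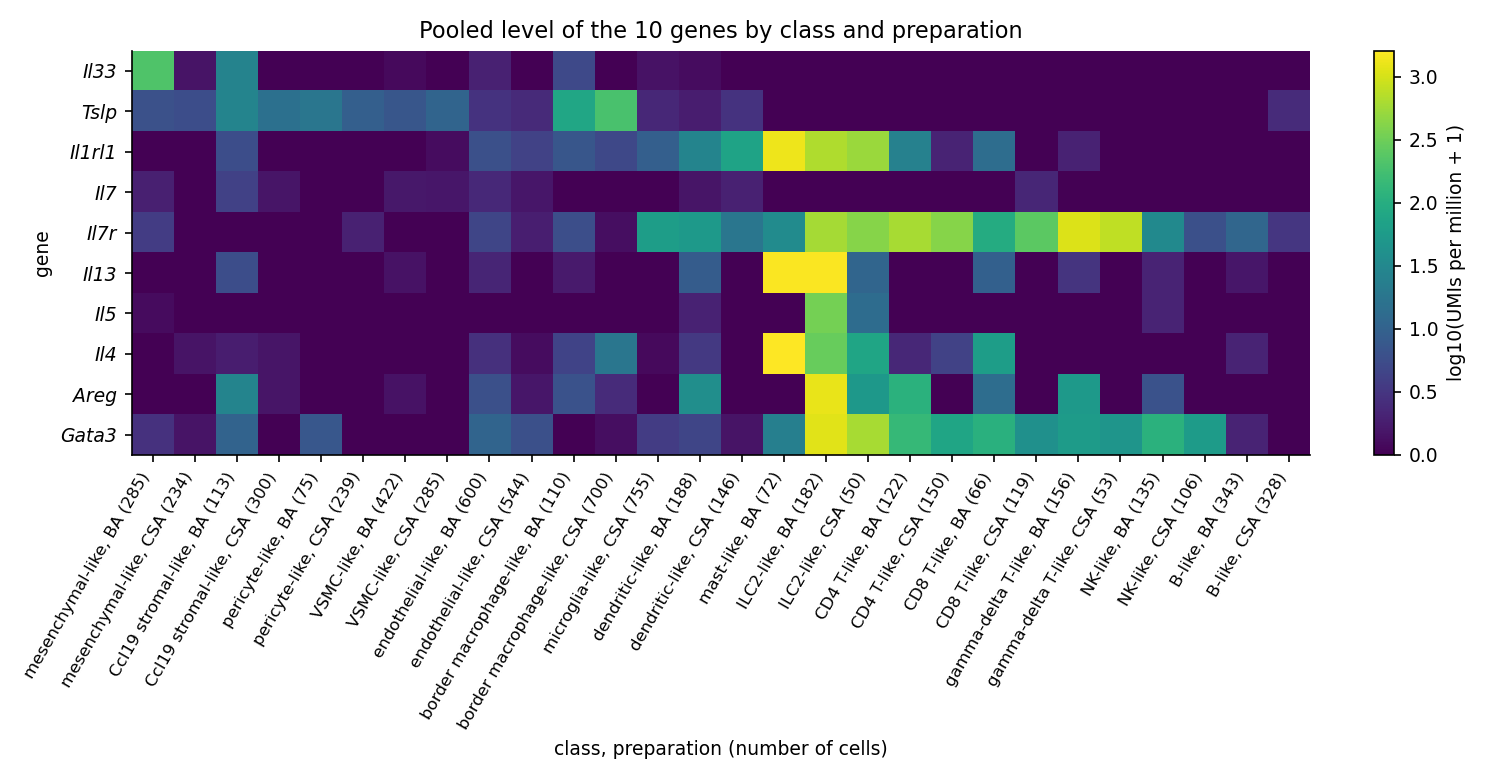
Color shows log10(CPM + 1) of the UMIs pooled over libraries for each gene (rows) in each class and preparation (columns, number of cells in parentheses). Il33 stood out in BA mesenchymal-like cells, Tslp in border macrophage-like cells, Il1rl1 in mast-like and ILC2-like cells, and Il13 (1548 CPM in mast-like and 1549 CPM in ILC2-like cells) in BA cells of these types. Pooled Il33 was 207.6 CPM in BA mesenchymal-like cells and 282.6 CPM in 17 CSA oligodendrocyte-like cells.

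Il33 was high in mesenchymal-like cells of the dura and nearly absent from those of the cortical surface. In the BA libraries, its level in mesenchymal-like cells (fibroblast-like cells marked by Dcn, Col1a2 and Lum) was 192.7 and 209.7 CPM, with a UMI in 22 of 31 and 174 of 254 cells. In the 4 CSA libraries, a single UMI was counted among 234 mesenchymal-like cells, in library 2 (0.810 CPM), and libraries 1, 3 and 4 were at 0. The 2 groups did not overlap. Il33 was higher in BA by 8.36 ± 0.58 (SE) on the log2 scale, with an adjusted p of 1.54e-14 (edgeR's quasi-likelihood test, Benjamini-Hochberg, 2 against 4 libraries). Because 1 UMI stands behind the CSA level, the ratio of pooled counts was 434 with a 95% counting interval of 77.6 to 17140. Il33 was the only gene of the 10 that passed the detection filter (detected in more than 10% of cells in at least 1 of the compared groups) in this comparison, in which 16.0% of all 9604 genes tested were called (adjusted p under 0.05 and an absolute log2 difference of at least 1.3). It passed only through BA cells, where it was high. Without CSA library 2 the fitted difference was 10.68, against a group then at 0 UMIs, and without doublet removal it was 5.36.

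The difference in Il33 remained in cells of equal depth. With each cell thinned to 1500 UMIs, 62 of 282 BA cells (22.0%) and 0 of 234 CSA cells kept an Il33 UMI, and before thinning 68.8% of BA cells (63.0 to 74.1%, exact binomial 95% interval) and 0.427% of CSA cells (0.0108 to 2.36%) had one, at medians of 14900 and 8018 UMIs per cell. No Il33 UMI was found in 343 BA and 328 CSA B cell-like cells, which should lack the gene (medians of 4790.0 and 3846 UMIs), with exact upper limits of 1.07% and 1.12% of cells with a UMI. All intervals cover counting error only.

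The 3 BA mesenchymal-like clusters all carried Il33. The cluster led by Gjb6, Pappa and Slc26a7 had 266 CPM and a UMI in 45 of 54 cells. The study uses Gjb6 as a marker of leptomeningeal cells, and the meningeal layer of this BA cluster was not tested. Levels were 192.3 CPM in the cluster led by Apod, Inmt and Epyc (67 of 92 cells) and 189.1 CPM in that led by Comp, Cilp2 and Chad (84 of 139 cells). After thinning, the shares lay between 20.6 and 23.9%. The other dural stromal cells carried less: Ccl19 stromal-like cells (named from Ccl19, Colec11 and Steap4) reached 38.0 and 18.6 CPM in BA, from 8 of 113 cells, and were at 0 of 300 cells in CSA. Of 8 mesenchymal markers, 7 were in at least 20% of these BA cells (summed level 5372 CPM). In those of CSA, 4 were (1517 CPM). The part of these markers in the levels of this class, here and below, was not tested. In the other stromal and vascular classes Il33 was at or near 0, with 5 UMIs in 600 BA endothelial-like cells and 1 UMI in 422 BA vascular smooth muscle cell (VSMC)-like cells. Of the 952 Il33 UMIs in BA cells of named classes, 94.6% lay in mesenchymal-like cells.

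Set against endothelial-like cells of the same libraries, mesenchymal-like cells had more Il33 by 7.36 ± 0.46 (log2, adjusted p = 1.41e-05, edgeR with the library as a block). In that comparison Il33 was again the only member tested, and 25.2% of all 9487 genes were called. Il33 passed the filter through mesenchymal-like cells only, where it was high. DESeq2 gave 3.52 with an adjusted p of 0.382. Both classes were at or near 0 in the CSA libraries, so the difference came from the BA libraries.

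On the cortical surface Il33 was carried by a small group of oligodendrocyte-like cells (Mog, Mag and Mobp). Of 69 UMIs in named CSA classes, 65 lay in these 17 cells, with a UMI in 11 of them (64.7%, 38.3 to 85.8%). Their pooled level was 282.6 CPM, above the 207.6 CPM of BA mesenchymal-like cells. Library 4 had 9 of 9 cells, library 3 had 1 of 1, library 2 had 1 of 5 and library 1 had 0 of 2. No library held 10 such cells, so no mean over libraries is given. Markers of border macrophages were also present in these cells, with 5 of 7 in at least 20% of the cells and a summed level of 1630 CPM. Border macrophage-like cells of the CSA libraries themselves held no Il33 UMI in 700 cells, and those of BA held 6 UMIs in 110 cells.

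**Figure D2:**
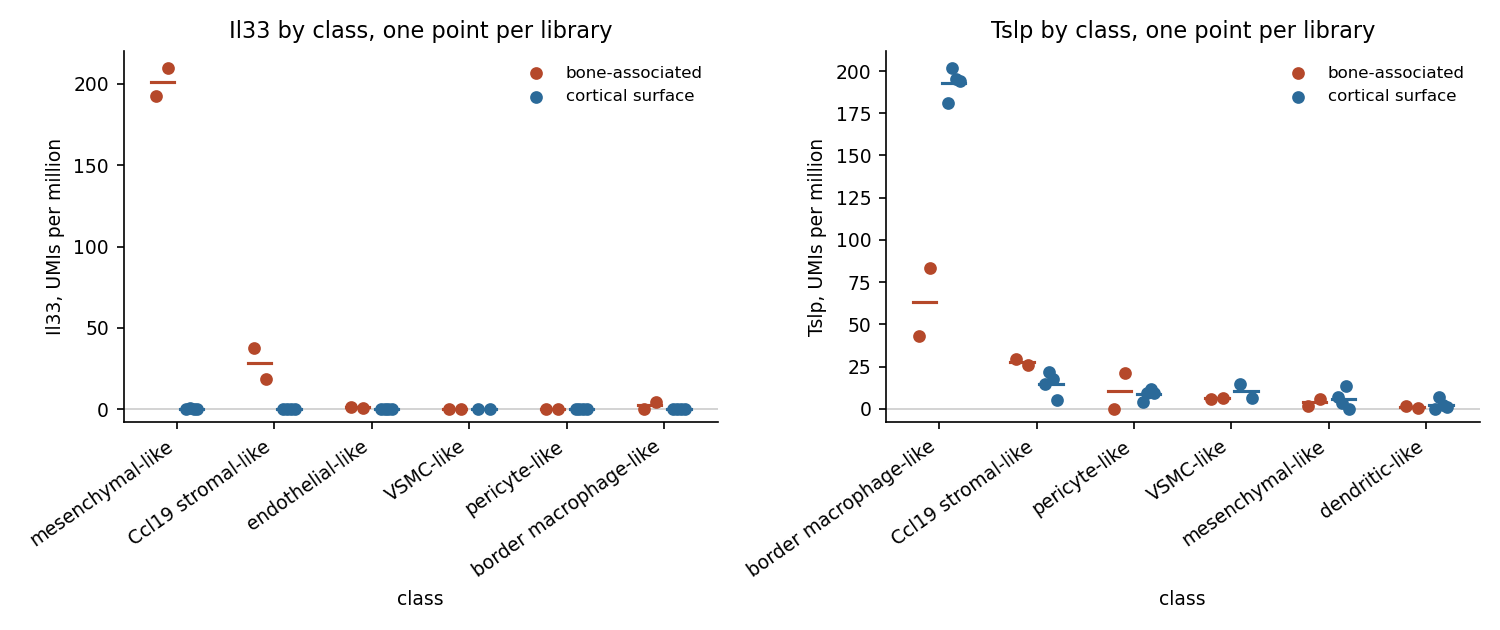
Il33 (left) and Tslp (right) in CPM by class, with a point for each library of at least 10 cells and a bar at their mean. For Il33 the 2 BA mesenchymal-like points lie at 192.7 and 209.7 and the 4 CSA points at or near 0. For Tslp the 4 CSA border macrophage-like points lie between 181.0 and 201.9, above both BA points.

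Tslp was found mainly in border macrophage-like cells (Mrc1, Cd163, Lyve1 and Pf4), the macrophages of the meninges and perivascular spaces. Its level was 181.0, 201.9, 195.4 and 194.3 CPM in CSA libraries 1 to 4 and 43.4 and 83.5 CPM in BA libraries 1 and 2. The CSA values were close to each other and all above the BA values. Of 7 border macrophage markers, 7 were in at least 20% of the cells in each preparation. Their summed level was 14420 CPM in CSA and 8333 CPM in BA. The part of these markers in the Tslp and Il4 levels of this class, here and below, was not tested. Of the 1520 Tslp UMIs in named classes, 1171 came from 700 CSA and 113 from 110 BA border macrophage-like cells. These were 90.35% of the CSA and 50.45% of the BA UMIs in named classes. Tslp in BA minus CSA differed by -1.31 ± 0.28 (log2, adjusted p = 0.0139, edgeR, 2 against 4 libraries), just past the threshold of 1.3. Both members tested in this comparison, Tslp and Il4, were called, against 6.30% of all 7629 genes. Il4 passed the filter only through CSA cells, where it was higher. The fitted difference of Tslp stayed between -2.17 and -0.84 over the alternatives, but it passed both thresholds in 8 of 18 of them. It was -1.01 without BA library 1, -2.17 without BA library 2, and -0.84 with an adjusted p of 0.322 in cells thinned to 1500 UMIs. Without BA library 2, 248 genes in place of 481 were called.

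The share of border macrophage-like cells with a Tslp UMI varied with the depth of the CSA libraries. It was 74.3% and 77.8% in CSA libraries 1 and 2 (medians of 13070 and 11860 UMIs per cell) and 43.2% and 41.8% in libraries 3 and 4 (medians of 3098 and 3376), while the CPM were alike. The BA shares were 33.3 and 50.5% at medians of 15600 and 12710.0 UMIs. In cells thinned to 1500 UMIs, 144 of 626 CSA cells (23.0%) and 15 of 108 BA cells (13.9%, 7.99 to 21.9%) kept a UMI. The 3 CSA clusters of these macrophages, led by Ccl7 and Ccl2, by Ms4a14 and Adam33, and by Ccl8 and Chp2, had 181, 215.5 and 214.2 CPM, and the BA cluster had 77.7 CPM. B cell-like cells had 2 Tslp UMIs in 328 CSA cells and none in 343 BA cells, and microglia-like cells, the other brain macrophages, had 6 UMIs in 755 cells.

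Among the named classes, stromal cells formed a lower tier of Tslp. Ccl19 stromal-like cells had 29.5 and 26.1 CPM in BA and 5.05 to 22.0 CPM in CSA, so the preparations did not overlap. VSMC-like cells followed with 5.94 and 6.46 CPM in BA and 15.03 and 6.47 CPM in CSA libraries 1 and 2. Pericyte-like cells had 0 and 21.3 CPM in BA and 4.36 to 11.7 CPM in CSA. Mesenchymal-like cells, the carriers of Il33, had 23 Tslp UMIs in 285 BA cells and 10 in 234 CSA cells, and their levels overlapped (1.84 and 5.80 CPM against 0 to 13.5 CPM). Among named classes, the order CSA border macrophage-like, BA border macrophage-like and BA Ccl19 stromal-like held without overlap of libraries. The classes below it overlapped. An unnamed CSA cluster of 13 cells, with Inmt and Col1a1 among its leading genes, had 96.8 CPM of Tslp. That pooled level lay above both BA border macrophage-like libraries. Tslp overlaps the gene 4930455D15Rik on the opposite strand, and whether counting used strand is not given in the sources used here.

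Il7 was hardly detected. In all, 29 UMIs were counted in 25 of 8680 cells (20 UMIs in BA and 9 in CSA). BA Ccl19 stromal-like cells had 4 UMIs in 113 cells (2.48 and 4.22 CPM by library) and BA mesenchymal-like cells 4 UMIs in 285 cells (0.263 and 5.51 CPM), ranges that overlapped. No difference could be read at this depth, and Il7 overlaps the antisense gene Gm16685.

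Among the receptors, Il1rl1 was highest in mast-like and ILC2-like cells. Mast-like cells, a class name taken in BA only and marked by Kit, Cpa3, Mcpt4 and Tpsb2, had 1819 and 1216 CPM in libraries 1 and 2, with a UMI in 71 of 72 cells. ILC2-like cells (Rora, Klrg1, Arg1 and Nmur1) had 921 and 590.3 CPM in BA, and 579, 498.5, 568 and 507.0 CPM in CSA libraries 1 to 4, of which libraries 1 and 2 held only 3 and 6 cells. The lowest BA library lay just above the highest CSA library. The difference, BA minus CSA, was 0.63 ± 0.26 (log2, adjusted p = 0.156, edgeR, BA libraries against CSA libraries 3 and 4), a difference that was not called under any alternative. A UMI was found in 90.1% of the BA and 94.0% of the CSA ILC2-like cells, and in none of the 343 BA and 328 CSA B cell-like cells.

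Below these classes, dendritic-like cells carried Il1rl1 at 59.1, 67.9, 81.4 and 71.6 CPM in CSA libraries 1 to 4 and at 18.3 and 30.6 CPM in BA. The CSA values all lay above the BA values, and the ratio of pooled counts was 2.65 (95% counting interval 2.05 to 3.44). This comparison was chosen after its values were seen and was not tested. CD4 T cell-like cells had 21.2 and 26.8 CPM in BA, from 9 of 122 cells, against 1 UMI in 150 CSA cells. Microglia-like cells had 4.99 to 15.03 CPM. The counts per gene pool the membrane-bound and soluble forms of ST2.

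Il7r was spread over the lymphocytes. Gamma-delta T cell-like cells had the highest level, 1050.0 and 1403 CPM in BA and 678 and 1023 CPM in CSA libraries 3 and 4. BA ILC2-like cells followed with 756 and 547 CPM, overlapping BA CD4 T cell-like cells with 544.7 and 709.8 CPM, and CSA ILC2-like cells had 615.3, 311.6, 300.5 and 484.1 CPM in libraries 1 to 4. The 3 cells of CSA library 1 lay above BA library 2, so the ILC2-like ranges overlapped. CD8 T cell-like cells were lower, at 57.2 and 120.6 CPM in BA and 240.2 and 326.8 CPM in CSA. Outside lymphocytes Il7r reached 38.9 to 86.8 CPM in microglia-like cells (189 of 755 cells) and 36.5 and 60.5 CPM in BA dendritic-like cells. B cell-like cells gave 16 of 343 BA cells with a UMI (4.66%, 2.69 to 7.46%) and 3 of 328 CSA cells.

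Across all T cell-like cells, Il7r was at 631.0 and 625 CPM in BA and at 162.9, 195.7, 542 and 392 CPM in CSA libraries 1 to 4. Every CSA library was below both BA libraries. The makeup of this pooled class differed between the preparations. Gamma-delta T cell-like cells, the highest in Il7r, were 156 of 476 BA and 53 of 337 CSA cells. CD8 T cell-like cells, which were lower in BA than in CSA, were 66 and 119 cells. The part of this makeup in the difference was not tested. The difference, BA minus CSA, was 0.91 ± 0.41 (log2, adjusted p = 0.179, edgeR) and was not called. It was called without CSA libraries 3 and 4 (1.96, adjusted p = 0.000395), which left 26 and 25 CSA cells, and with the replicate number as a block (1.89, adjusted p = 1.37e-14). Numbers 3 and 4 exist only in CSA, so the block fit takes its difference from the same 26 and 25 CSA cells. The 2 fits are not separate support, and a shared number does not make libraries a pair. The block fit leaves little spread between libraries for the gene itself, so its p-value leans on the spread of other genes. Neither of the 2 members that passed the filter in T cell-like cells was called, against 6.65% of all 5743 genes. For Gata3 the levels were 83.7 and 98.2 CPM in BA and 41.8 to 118 CPM in CSA, which overlap, with a difference of 0.40 ± 0.32 (adjusted p = 0.453). In all, 382 genes were called in T cell-like cells, 173 without BA library 1, 201 without BA library 2 and 225 without CSA library 4. No member passed the filter in endothelial-like cells, where 6.33% of all 7693 genes were called.

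The effector genes Il4, Il13 and Il5 lie together on mouse chromosome 11 (GRCm38, GENCODE annotation). Il4 is at chr11:53602982-53618669 and Il13 at chr11:53631324-53634702, both on the minus strand, and Il5 is at chr11:53720794-53725106 on the plus strand, all within 122.1 kb. Rad50, the gene of a DNA repair protein, is the other protein-coding gene of this stretch, and Il5 overlaps the antisense gene Gm12214. The 250 bases directly before a RefSeq start of 4 members (GRCm38.p6, 5′ to 3′ on the strand of the gene) are shown because Il13, Il5 and Il4 were called together in ILC2-like cells and Il1rl1 is the receptor gene of these cells. The windows are chr11:53634703-53634952 for Il13 and chr11:53618666-53618915 for Il4 (minus strand), and chr11:53720544-53720793 for Il5 and chr1:40429320-40429569 for Il1rl1 (plus strand). Capitals mark GATAA or its reverse complement TTATC, a form of the core letters bound by GATA factors. Other forms, such as GATAG or its reverse complement CTATC, were not searched. Of the printed windows, those of Il5 and Il1rl1 hold this other form unmarked.
Il13: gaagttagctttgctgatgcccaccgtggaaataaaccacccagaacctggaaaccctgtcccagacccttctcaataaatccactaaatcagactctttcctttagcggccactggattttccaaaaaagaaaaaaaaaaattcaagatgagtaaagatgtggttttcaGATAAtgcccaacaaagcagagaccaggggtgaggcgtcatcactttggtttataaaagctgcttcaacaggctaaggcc
Il4: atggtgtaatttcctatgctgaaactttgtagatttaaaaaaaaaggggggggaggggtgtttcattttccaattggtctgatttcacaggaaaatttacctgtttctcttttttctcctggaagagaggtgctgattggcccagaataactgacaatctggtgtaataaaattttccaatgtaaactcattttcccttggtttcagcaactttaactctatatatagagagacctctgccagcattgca
Il5: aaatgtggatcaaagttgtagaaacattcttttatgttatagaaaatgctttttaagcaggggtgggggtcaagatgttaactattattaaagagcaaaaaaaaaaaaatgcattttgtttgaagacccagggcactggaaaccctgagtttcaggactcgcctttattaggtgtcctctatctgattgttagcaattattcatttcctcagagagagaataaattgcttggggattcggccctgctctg
Il1rl1: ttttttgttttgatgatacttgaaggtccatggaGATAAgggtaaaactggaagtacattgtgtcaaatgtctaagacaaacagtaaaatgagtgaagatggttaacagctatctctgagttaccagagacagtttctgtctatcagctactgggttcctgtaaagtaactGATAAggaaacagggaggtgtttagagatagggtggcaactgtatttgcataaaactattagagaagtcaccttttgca
The motif began at -80 of the Il13 start and at -216 and -79 of this Il1rl1 start. It also began at -103 of the second Il1rl1 start and at -150 of the first of the Il33 starts. GATAA or TTATC was in neither the second Il33 window nor any window of Il4, Il5, Il7r, Areg and Gata3. This absence does not cover the forms that were not searched. The motif is common, since 7418 of 32851 RefSeq promoter windows of this length (22.6%) hold it on either strand. A match is a description of letters and not of binding. Of the 10 members, 8 were found in the promoter table.

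In dural ILC2-like cells the effector genes were high, and in those of CSA libraries 3 and 4, used in the test, they were lower or absent. Of the 9 cells of CSA libraries 1 and 2, 66.7% had an Areg UMI and 55.6% an Il4 UMI, against 70.3% and 40.1% in BA. Pooled CPM of both genes were still lower there than in BA. The class was named from its markers, so their presence is no separate check. Of these, 8 of 10 were in at least 20% of BA cells and 7 of 10 in at least 20% of CSA cells, with summed levels of 4111 and 1618 CPM. Of 6 T cell markers, 2 in BA and 3 in CSA were in at least 20% of ILC2-like cells. Their summed levels were 707.5 and 616.6 CPM, against 4893 and 4774 CPM in T cell-like cells. Il13 was at 579.9 and 1828 CPM in the BA libraries (20 of 37 and 76 of 145 cells with a UMI) and at 0 in the 12 and 29 cells of CSA libraries 3 and 4. Against a floor of 3 UMIs over both CSA libraries, Il13 was at least 159.5-fold higher in BA, and its adjusted p was 7.1e-09 (edgeR). CSA library 1 had no Il13 UMI in 3 cells, and library 2 had 4 UMIs in 3 of 6 cells.

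Areg, the gene of a growth factor of the EGF family, was at 1476 and 1211 CPM in BA and at 33.4 and 4.57 CPM in CSA libraries 3 and 4, where 1 cell of each carried it. The difference was 6.76 ± 0.43 (log2, adjusted p = 5.07e-11, edgeR). The level was 289.6 CPM in library 1 (3 of 3 cells) and 125 CPM in library 2 (3 of 6 cells), between the other groups. Il5, the growth factor of eosinophils, was at 550.6 and 287.7 CPM in BA and 33.4 and 4.57 CPM in CSA libraries 3 and 4, with a difference of 5.04 ± 0.57 (adjusted p = 6.44e-07, edgeR). Only 1 cell each of CSA libraries 2, 3 and 4 carried Il5, against 58 of 182 BA cells. Il4 was at 212.9 and 314.1 CPM in BA, and at 22.3 and 77.7 CPM in CSA libraries 3 and 4. Its difference was 2.34 ± 0.43 (adjusted p = 0.00053, edgeR), and libraries 1 and 2 had 72.4 and 140.2 CPM from 1 of 3 and 4 of 6 cells. For these 4 genes the BA and CSA libraries did not overlap, and the share of all genes that separate in this way is not given here.

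In this comparison 7 of the 10 members passed the filter, and 4 were called, all higher in BA, against 6.46% of all 5649 genes. Il13, Areg and Il5 passed the filter only through BA cells, where they were high, so this share of members called is no independent support. The count rests on few libraries: of the 365 genes called, 318 were higher in BA, and the count was 61 without BA library 2, 195 without CSA library 4 and 193 with DESeq2. The calls of Il13, Areg and Il5 held under all 14 alternatives. The Il5 difference was 6.58 without CSA library 3 and 3.84 without library 4, and that of Areg 8.29 and 5.55. Il4 was no longer called without BA library 2 (1.85) and was 3.82 without CSA library 4. Each fit here without a library leaves 1 library in a group, so the other group alone supplies the spread. Gata3 differed by 1.02 ± 0.22 (adjusted p = 0.00282), under the fold threshold, with 1204 and 1154 CPM in BA and 543, 576, 712 and 594 CPM in CSA libraries 1 to 4. Gata3 overlaps the gene 9230102O04Rik on the same strand, and Gm13256 and 4930412O13Rik on the opposite strand. The part of these overlaps in its counts was not tested. Il7r differed by 0.81 ± 0.28 (adjusted p = 0.0789) against CSA libraries 3 and 4.

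**Figure D3:**
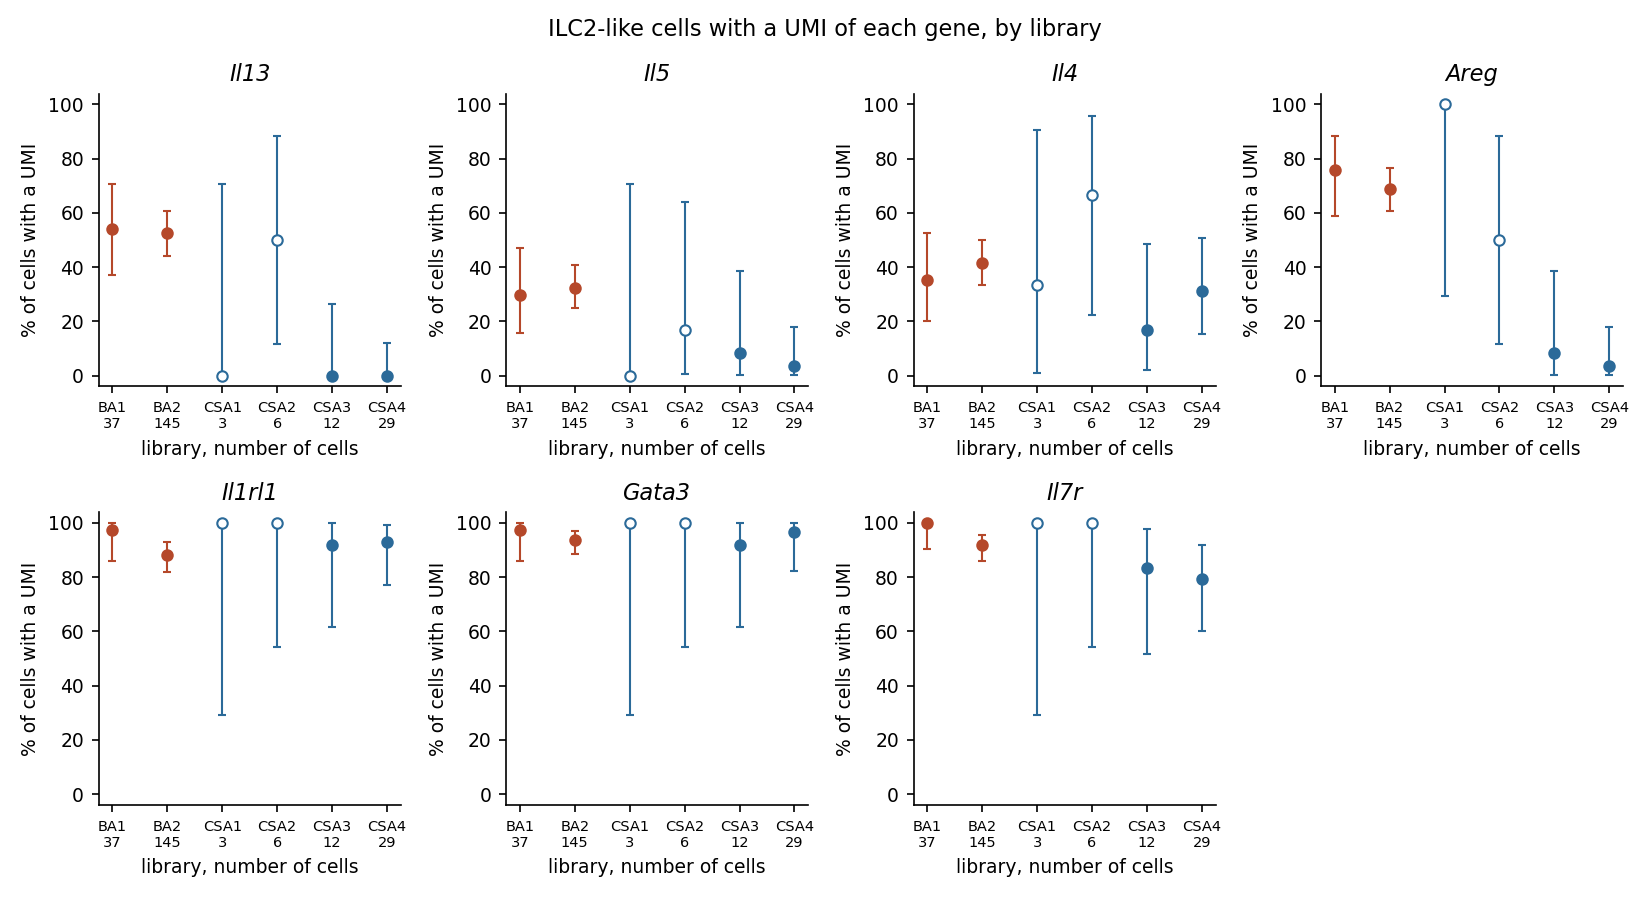
Percent of ILC2-like cells with a UMI of each of 7 genes, by library (number of cells under the name), with exact binomial 95% intervals that cover counting error only. Open points are libraries with under 10 cells, which entered no test. For Il13 the BA points lie at 54.1 and 52.4%, CSA libraries 3 and 4 at 0 and CSA library 2 at 3 of 6 cells, while Il1rl1 and Gata3 lie at 88.3% or more in all 6 libraries.

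The CSA libraries were also described apart, with no test between them. No UMI of Il13, Il5, Il4 or Areg was found in 0 of 3 and 1 of 6 ILC2-like cells of libraries 1 and 2, and in 8 of 12 and 19 of 29 cells of libraries 3 and 4. In BA, 3 of 37 and 20 of 145 cells carried none. In cells thinned to 1500 UMIs, none was found in 1 of 3, 4 of 6, 12 of 12 and 27 of 29 cells of CSA libraries 1 to 4 and in 8 of 37 and 49 of 145 cells of the BA libraries. Cells without any of the 4 genes were most frequent in CSA libraries 3 and 4 at each depth. Over all 50 CSA cells, the BA level was higher by a ratio of pooled counts of 155 for Il13 (95% counting interval 60.5 to 570.1), 27.8 for Il5 (11.8 to 85.9), 25.4 for Areg (16.4 to 41.8) and 3.89 for Il4 (2.68 to 5.86). Against libraries 1 and 2 alone, these ratios were 35.6 (13.9 to 131), 31.8 (5.68 to 1259), 7.29 (4.47 to 12.8) and 2.43 (1.34 to 4.92). Hemoglobin UMIs moved with the split between the CSA libraries, as did the numbers of some cell classes. In CSA libraries 1 to 4, VSMC-like cells numbered 109, 173, 1 and 2, and choroid plexus-like cells 1, 4, 37 and 99. The part of hemoglobin or of cell makeup in the split was not tested. Leaving hemoglobin genes out of the totals left the fitted differences of these genes the same to 2 decimals. That fit compared BA with CSA libraries 3 and 4 and changed only the scaling, so it cannot address the split between the CSA libraries.

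The 182 BA ILC2-like cells formed 3 clusters with different levels of the effector genes. The first cluster (53 cells, median 6599 UMIs) had 3757 CPM of Il13, 784 CPM of Il5, 1833 CPM of Areg and 1724 CPM of Gata3. The second (57 cells) had 981 CPM of Il13, 214 CPM of Il5 and 1614 CPM of Areg, and the third (72 cells) had 347 CPM, 124 CPM and 566 CPM of the same genes. Il4 was more even, with 312, 421 and 170 CPM. The clusters were made without the members, yet from genes that can vary with them, so these values are a description. Il13 and Areg were often in the same cell: 76 of the 96 cells with an Il13 UMI had an Areg UMI (79.2%), against 60.5% of the cells without Il13. For Il13 and Il4 these shares were 53.1% and 25.6%, and for Il5 and Il4 41.4% and 39.5%. Such pairs also share the depth of the cell.

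**Figure D4:**
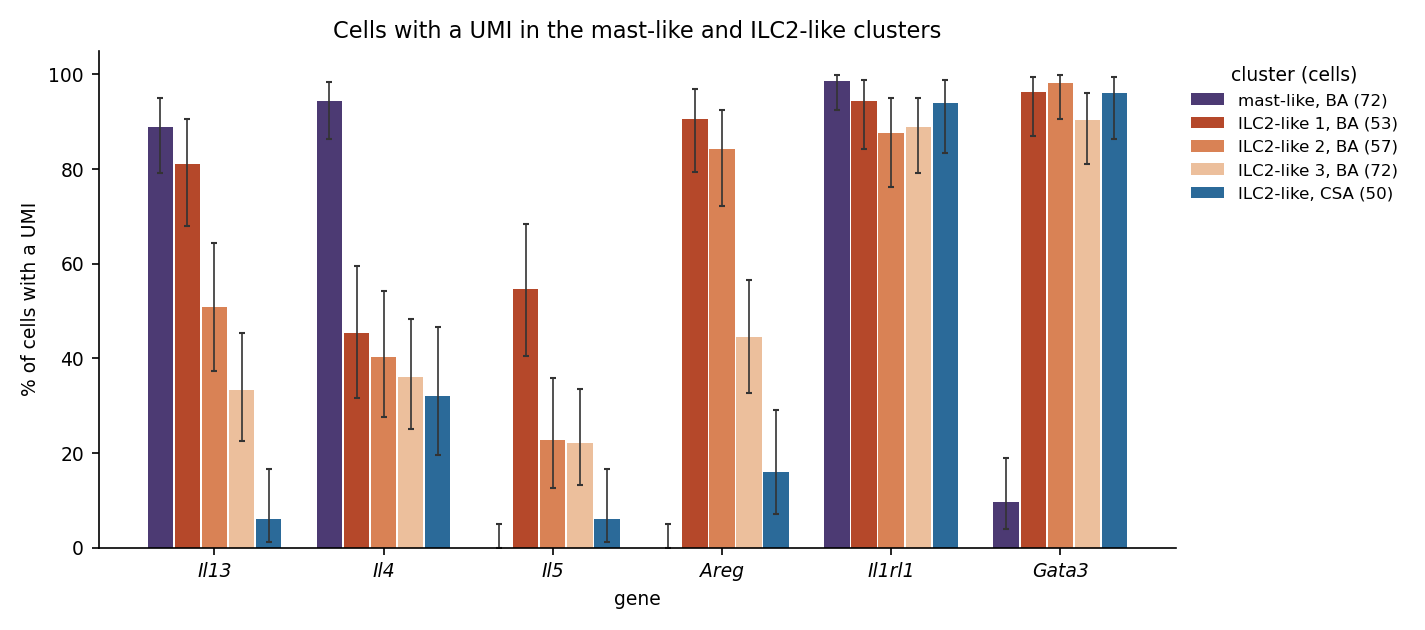
Percent of cells with a UMI of 6 genes (bars) in the BA mast-like cluster, the 3 BA ILC2-like clusters and the CSA ILC2-like cluster, with exact binomial 95% intervals that cover counting error only. Mast-like cells lay at 88.9% for Il13 and 94.4% for Il4 and at 0 for Il5 and Areg, and the CSA ILC2-like cells lay at 6.0% for Il13.

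Mast-like cells carried Il13 and Il4 but neither Il5 nor Areg. Il13 was at 1084 and 1666 CPM in BA libraries 1 and 2, with a UMI in 64 of 72 cells (88.9%, 79.3 to 95.1%), and its range overlapped that of BA ILC2-like cells. Il4 was at 848 and 1802 CPM, in 68 of 72 cells, above BA ILC2-like cells in both libraries, with a ratio of pooled counts of 5.52 (95% counting interval 4.87 to 6.26). No UMI of Il5 or Areg was counted in the 72 cells, which allows up to 4.17% of cells with a UMI at a floor of 3 counts and does not limit the share of cells that express the genes. In 63 of the 72 cells Il13 and Il4 UMIs were both present, 11 of 15 in library 1 and 52 of 57 in library 2. Gata3 was low in these cells, at 56.5 and 14.4 CPM. Of all BA UMIs in named classes, mast-like cells held 29.3% of Il13 and 63.8% of Il4, and ILC2-like cells 68.4% and 27.0%.

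Markers of the 2 classes were set beside these shared genes. Mast cell markers summed to 124500 CPM in mast-like cells, with 9 of 9 in at least 20% of cells, and to 90.1 CPM in BA ILC2-like cells, with 1 of 9. ILC2 markers summed to 4111 CPM in BA ILC2-like cells and to 918 CPM in mast-like cells, where 2 of 10 were in at least 20% of cells. The part of these markers in the shared counts was not tested. Free RNA was not estimated, and its part in these counts was not tested. Of 343 BA B cell-like cells, 1 had an Il13 UMI (0.292%, 0.00738 to 1.61%) and 2 had an Il4 UMI. BA dendritic-like cells held 29 Il13 UMIs in 8 of 188 cells and 9 Il4 UMIs in 3 cells. A group of 6 BA basophil-like cells, blood relatives of mast cells, had 66 Il4 UMIs in 5 cells and 13 Il13 UMIs in 4 cells. No CSA cell was named mast-like or basophil-like, but an unnamed CSA cluster of 27 cells was led by Cpa3 and Ms4a2. Genes of dividing cells (Uhrf1, Top2a and Rrm2) were also among its leading genes. The cluster held 13 Il4 UMIs in 5 cells and 46 Il7r UMIs in 15 cells.

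Among T cells the effector genes were rare. Over the BA libraries and CSA libraries 3 and 4, ILC2-like cells had more of 6 of the 7 members tested than T cell-like cells of the same libraries, against 10.7% of all 5540 genes called in either direction. Of these 6, all but Gata3 passed the filter only through ILC2-like cells, where they were high, so this share is no independent support. The differences were 6.94 ± 0.33 for Il1rl1, 3.81 ± 0.16 for Gata3, 5.28 ± 0.26 for Areg, 5.34 ± 0.31 for Il4 and 9.74 ± 0.37 for Il13 (log2, adjusted p of 7.99e-11 or lower, edgeR with the library as a block). For Il5, the T cell-like cells had no UMI, and the level in ILC2-like cells was at least 465-fold higher against a floor of 3 UMIs. Il7r did not separate the 2 (0.09 ± 0.17, adjusted p = 0.772). Without the block Areg was no longer called (adjusted p = 0.0791), and with DESeq2 Il13 was not (6.36, adjusted p = 0.261). Without BA library 2 the Il1rl1 difference was 8.21.

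Some T cell-like cells of the dura still carried the members. Areg had a UMI in 16 of 122 BA CD4 T cell-like cells (13.1%), at 56.5 and 140.3 CPM, and in 17 of 156 BA gamma-delta T cell-like cells, at 14.1 and 58.4 CPM. Il4 had 28 UMIs in 9 of 66 BA CD8 T cell-like cells, at 33.3 and 81.7 CPM, and 1 UMI in 122 BA CD4 T cell-like cells. In CSA, 337 T cell-like cells held 5 Areg and 3 Il4 UMIs. Gata3 was at 98.9 and 163.0 CPM in BA CD4 T cell-like cells and at 106.7 and 113 CPM in BA NK-like cells, which overlap, and both lay below ILC2-like cells of either preparation.

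Outside these cells, Il4 had a low and steady level in border macrophage-like cells of the cortical surface. It was 16.8, 16.5, 19.2 and 19.9 CPM in CSA libraries 1 to 4, from 76 of 700 cells, and 0 and 4.01 CPM in BA, from 5 of 110 cells. The groups did not overlap, and the difference, BA minus CSA, was -2.16 ± 0.53 (log2, adjusted p = 0.0297, edgeR). It was called in 8 of 16 alternatives and lost, among others, with DESeq2 (adjusted p = 0.1), without BA library 1 (-1.91, adjusted p = 0.066) and with the replicate block (-2.13, adjusted p = 0.0526). In both of the fits that leave out a BA library, the lone BA library is assumed to vary like the CSA libraries, and without BA library 2 the only one left was at 0 UMIs. Microglia-like cells of the same CSA libraries had 1 UMI in 755 cells, and CSA B cell-like cells had none in 328. Border macrophage-like cells held 73.9% and ILC2-like cells 21.1% of the 142 Il4 UMIs in named CSA classes. In cells thinned to 1500 UMIs, 17 of 626 CSA and 1 of 108 BA cells kept an Il4 UMI.

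**Figure D5:**
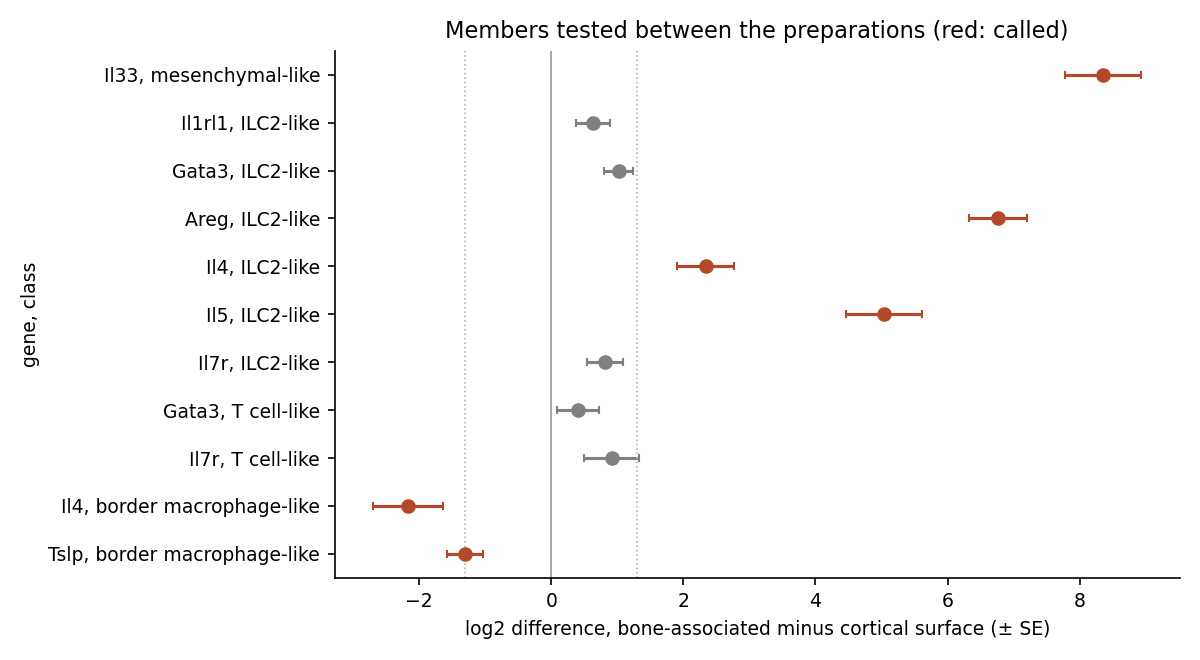
Fitted log2 difference, BA minus CSA, with its standard error, for each member tested between the preparations within a class. Red points were called, and dotted lines mark -1.3 and 1.3. Il13 in ILC2-like cells is left out, because the CSA libraries tested were at 0 UMIs. Il33 in mesenchymal-like cells lies at 8.36, and Tslp in border macrophage-like cells lies on the line at -1.31.

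The wider pathway was followed through 47 genes in 4 lists (other type 2 ligands, receptor chains, signal transducers and type 2 response genes). In ILC2-like cells, 20 of the 47 were tested, and 2 were higher and 1 lower in BA than in CSA libraries 3 and 4, against 6.46% of all genes called, with a median difference of 0.75 against -0.019 over all genes tested. Csf2, the gene of the growth factor GM-CSF, was higher in BA by 4.86 ± 0.29 (2001 against 71.2 CPM, adjusted p = 1.17e-11), and the costimulator Icos by 2.51 ± 0.37 (399 against 73.5 CPM). Socs1, an inhibitor of cytokine signaling, differed by -1.54 ± 0.44 (51.0 against 201 CPM, adjusted p = 0.0315, edgeR). In T cell-like cells 4 of 16 genes tested were higher in BA and none lower, namely Icos (2.14), Il4ra (1.59), Il2ra (1.54) and Stat5a (1.68). Of all genes, 6.65% were called in that comparison, 305 higher and 77 lower. Compared with T cell-like cells, ILC2-like cells had more of 6 and less of 2 of the 20 genes tested, against 10.7% of all genes called (285 higher and 308 lower). These were Csf2 (4.82), Il2 (1.95), Il17rb (5.37), the receptor chain for the alarmin IL-25, Il9r (3.60), Il2ra (2.34) and Cish (1.75), with Stat5a (-2.78) and Stat5b (-1.35) lower.

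In mesenchymal-like cells 18 of the 47 genes were tested, with 3 higher and 4 lower in BA, against 16.0% of all genes called. The epidermal growth factor receptor Egfr, to which amphiregulin binds, was higher in BA by 2.48 ± 0.35 (205 against 37.0 CPM), as were Myd88 (1.91), an adaptor downstream of ST2, and Socs1 (1.87). The receptor chains Il13ra2 (-4.52) and Il13ra1 (-2.26) and the EGFR ligands Tgfa (-3.30) and Hbegf (-1.35) were lower in BA. In border macrophage-like cells 4 of 22 genes tested were higher in BA, namely Il2rg (2.88), Il17ra (1.74), Csf2rb (1.37) and Cish (2.45), against 6.30% of all genes called. In endothelial-like cells 2 of 18 were higher, Csf2rb (2.71) and Socs1 (1.91), against 6.33% of all genes called. Between mesenchymal-like and endothelial-like cells, 2 of 20 genes were higher in mesenchymal-like cells, Egfr (8.35) and Postn (6.34), and 6 were lower, among them Sigirr (-7.27), Il2rg (-5.43), Jak3 (-4.52) and Hbegf (-2.95), against 25.2% of all genes called.

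The genes whose pattern over 39 class-by-preparation sums was most like that of each member (Pearson's r of log2(CPM + 1), 16495 genes) were listed as a description. The points share libraries and depth, and genes are not independent replicates. Il13 was most like Il4 (r = 0.881), then the chemokine gene Ccl1 (0.813) and Csf2 (0.805), and Il1rl1 was most like Il4 (0.822), Gm20186 and D330045A20Rik. Il4 was most like Il13, Il1rl1 and Ccl1. For Il33 these were Pax1 (0.916), Gm765 and Tmem215, and for Tslp 1500002C15Rik (0.812), B3galnt1 and the border macrophage marker Lyve1 (0.79). Il5 was most like 1700113H08Rik (0.869), Gm5544 and Arg1, and Areg like Arg1 (0.764), Hilpda and Muc1. Il7r was most like Xlr4b (0.932), Cxcr6 and Xlr4a, Gata3 like Skap1 (0.908) and Xlr4a, and Il7, with its 28 UMIs in named cells, like Grem1 (0.734), Gata6 and Cdh13.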

How the data were processed

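The authors aligned reads to mm10 with Cell Ranger (version 3 per the submitters' processing notes, 6.1.2 per the file headers) and deposited raw UMI counts per gene and barcode. Whether the counts used strand is not given in the sources used here. The enzymes given for dissociation differ, collagenase and dispase in the study's methods and papain in the labels.

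Barcodes with 500 or more genes and 10% or less of mitochondrial UMIs were kept, cells most like simulated doublets were removed (0.8% per 1000 cells), and each preparation was clustered with scanpy 1.11.5 and leidenalg 0.10.2 (2000 genes, 30 components, 15 neighbours, resolution 1.5). A cluster took a class name when at least 3 and over 50% of its markers led it. Lymphoid clusters were clustered again. Counts were summed per library and class and tested with edgeR 4.0.16 (TMM, quasi-likelihood, Benjamini-Hochberg; R 4.3.3) after checks on simulated data, with DESeq2 1.42.0 as an alternative. Named genes are the members, up to 4 called genes per pathway list and comparison, and the 3 most alike genes of each member, of which 1 is not reported here. The members and lists were chosen with earlier results of these data known. The naming rules, the clustering resolution and the comparisons of ILC2-like and border macrophage-like cells between preparations, the interaction and the fits without CSA libraries 3 and 4 were set after values were seen. Libraries share only a replicate number: BA and CSA endothelial-like deviations correlated at 0.169 for number 1 and 0.059 for number 2. The deviations of the 2 BA libraries mirror each other, so these values are not separate checks. BA library 2 with CSA library 4, of unlike number, gave 0.073. The p-values rest on the spread between libraries, each a pool of mice. In edgeR that spread is moderated across genes, so with few libraries much of it is borrowed from other genes. The authors state no normalization of the deposited counts.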

Additional observations from a re-analysis of the deposited data

Results flagged for a closer look

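The excess of Il1rl1 in ILC2-like over T cell-like cells differed between the preparations, which singled it out. The interaction (BA minus CSA, tested for the members in the fit across all genes) was -5.39 ± 1.22 on the log2 scale with an adjusted p of 0.00369 (edgeR's quasi-likelihood test). The T cell-like cells of CSA libraries 3 and 4, which entered this fit, had no Il1rl1 UMI in 93 and 193 cells, against 32 UMIs in 12 of 476 BA cells. The size of the value is therefore set against a group at 0 and is no measure of a fold difference, and the ILC2-like levels were 590.3 and 921 CPM in BA and 507.0 and 568 CPM in CSA libraries 3 and 4.

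UMIs of 7 members were also found in the 751 CSA cells that took no class name and entered no comparison: 18 of Il33, 104 of Tslp, 31 of Il1rl1, 210 of Il7r, 26 of Il4, 6 of Areg and 81 of Gata3. Tslp was concentrated in a cluster of 13 cells led by Fgfbp1, Inmt and Rbp4, with 35 UMIs in 13 of 13 cells (96.8 CPM). Col1a1 was also among the leading genes of that cluster, which held 7 Il33 UMIs in 1 cell. A cluster of 27 cells led by Cpa3, Ms4a2 and Cyp11a1, of which the first and second are genes of mast cells and basophils, held 46 Il7r UMIs in 15 cells and 13 Il4 UMIs in 5 cells. Its leading genes also included Uhrf1, Top2a and Rrm2, genes of dividing cells. A cluster of 301 cells led by H2-Eb1 and Cxcl14 held 26 Il1rl1 UMIs in 22 cells. Of the Gata3 UMIs, 37 lay in 20 of 52 cells of a cluster led by Trgv2 and Tcrg-C2, and all 6 Areg UMIs lay in 3 of 8 cells of a cluster led by Tmem212 and Ccdc153. In 10 groups of 4 CSA libraries checked for a library far from the others, none was found, where chance gives about 1 in 20.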

How the results depend on the processing

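Of 20 member differences tested, 13 stayed on the same side of the thresholds under every alternative run, as did 287 of 311 alternative values, and no called difference changed sign. The uncalled Il7r difference between ILC2-like and T cell-like cells did, and was -0.08 without BA library 1. The counts of genes called moved by more than 1.5 times as follows, and the cause was not tested unless fewer genes were tested. Thinning to 1500 UMIs, which left fewer genes to test, gave 587 in mesenchymal-like, 237 in endothelial-like, 205 in T cell-like, 150 in ILC2-like and 125 in border macrophage-like cells between the preparations, 996 for mesenchymal-like against endothelial-like cells and 242 for ILC2-like against T cell-like cells. Without a filter on low counts, which tests more genes, the counts were 892 in endothelial-like, 645 in T cell-like and 845 in border macrophage-like cells, and 916 for ILC2-like against T cell-like cells. DESeq2 gave 193 in ILC2-like cells, and leaving out CSA libraries 3 and 4 gave 231 in T cell-like cells. The Gata3 level of BA ILC2-like cells was 1241 CPM after thinning, against 1179 CPM.

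Leaving out 1 library at a time gave 173 to 502 genes in T cell-like, 61 to 392 in ILC2-like and 248 to 481 in border macrophage-like cells. Upper-quartile normalization shifted the median of all genes by -0.142 in T cell-like, -0.154 in border macrophage-like and -0.134 in ILC2-like cells, and by 0.15 for mesenchymal-like against endothelial-like cells. It changed the split of higher against lower calls from 305 and 77 to 261 and 130 in T cell-like cells and from 373 and 108 to 319 and 162 in border macrophage-like cells.

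With the replicate number as a block, the counts were 1574, 464, 329 and 500 in mesenchymal-like, endothelial-like, T cell-like and border macrophage-like cells. The replicate block changed the calls of Il7r in T cell-like cells and Il4 in border macrophage-like cells. Without the library block, the counts were 2347 for mesenchymal-like against endothelial-like cells and 385 for ILC2-like against T cell-like cells. No paired analysis was possible for ILC2-like cells between the preparations because their tested libraries share no number.

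Single libraries decide much here. With 2 BA libraries, and 41 CSA ILC2-like cells in libraries rich in hemoglobin, levels of rare classes rest on few cells.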

Other observations

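The wider pathway held a few levels that no comparison used. These genes were chosen after their values were seen, and the levels are pooled over libraries with no test. Ccl11, the gene of the eosinophil attractant eotaxin, was at 1516 CPM in BA Ccl19 stromal-like cells (58.4% of 113 cells) and at 51.4 CPM in those of CSA (13.3% of 300 cells). Ccl24, a second eotaxin gene, was at 652 CPM in CSA and 533 CPM in BA border macrophage-like cells, the same class that carried Tslp.

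Crlf2, the chain with which Il7r forms the TSLP receptor, was at 177.5 CPM in mast-like cells, 168 CPM in BA monocyte-like cells and 155.0 CPM in CSA dendritic-like cells. Il4ra, the shared receptor chain of IL-4 and IL-13, was at 294 CPM in BA and 183 CPM in CSA border macrophage-like cells. Il25, the third epithelial alarmin, had 17 UMIs in 141 CSA choroid plexus-like cells, and its receptor gene Il17rb was at 82.7 and 64.9 CPM in BA and CSA ILC2-like cells.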
